A study of Homo sapiens with 15 samples.

Results

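The EGR and NR4A genes encode transcription factors that cells switch on within minutes of a signal, without making new protein first. The set comprises 7 genes: EGR1, EGR2, EGR3 and EGR4, which encode zinc-finger proteins that bind GC-rich DNA, and NR4A1 (Nur77), NR4A2 (Nurr1) and NR4A3 (NOR1), which encode orphan nuclear receptors that act without a known circulating ligand. They were taken by gene symbol from the deposited count table, and all 7 were found among its 26485 gene rows. Of these, 6 had enough reads to be tested among 17243 genes, and EGR4 did not.

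RNA was sequenced from the human leukemia lines ML1 and U937, both labelled as acute myeloid leukemia, in 5 groups of 3 libraries. ML1 cells received diluent or 10 nM prexasertib, a CHK1 inhibitor, for 24 h. U937 cells received diluent, 10 nM prexasertib, or 10 nM prexasertib plus 350 nM LSN622666 (below, the combination) for the same time, and LSN622666 is known here by its code only. All groups, diluent included, also held 5 µM Q-VD-OPh, a pan-caspase inhibitor, and no group received LSN622666 without prexasertib. The study asked how TNF comes to rise in leukemia cells, so TNF is given as its readout. Library totals ran from 49011222 to 87301014 counts. The labels number the libraries of a group 1 to 3 but do not say that they came from separate cultures, so the p-values measure the spread between these libraries, which may be technical. In the bulk samples used here, fewer cells expressing a gene and less RNA per cell cannot be told apart.

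Both lines carried RNA of their labelled lineage. All 8 myeloid markers checked (among them CD33, SPI1, MPO and PTPRC) were at or above 1 CPM in every group, and 11 markers of lymphoid, erythroid, platelet, epithelial, stromal and endothelial cells summed to between 3.52 and 17.8 CPM. CPM are read counts relative to a library's total after scaling by edgeR's TMM method. In U937 prexasertib, replicate 2 stood apart. Over genes, its change from diluent was regressed on the mean change of the group's other libraries. The slope was 1.36, against 0.79 for replicate 1 and 0.69 for replicate 3. Values without U937 prexasertib replicate 2 are given where they change a result.

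Signals reach these genes mainly through the MAP kinase cascade. ERK and its downstream kinases phosphorylate ELK factors, which sit with SRF on CArG boxes, and CREB-type factors, which bind the cyclic AMP response element (CRE). EGR proteins then switch on the gene of their own co-repressor NAB2, a relative of NAB1, and NR4A proteins bind DNA alone or with RXR partners. In myeloid cells EGR1, EGR2 and NR4A1 are known for parts in monocyte and macrophage development.

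Promoter sequence was looked up for the members, because the genes moved together and share known response elements. From RefSeq's promoter table (GRCh38.p14) 8 windows were searched for 5 members, EGR1, EGR2, EGR4, NR4A1 and NR4A3. Promoters of EGR3 and NR4A2 were not searched. The stretches from 160 to 41 bases before the annotated start are printed for EGR1, EGR2 and NR4A3, which held most of the matches, with CArG boxes and the CRE core TGACG (on either strand, then read as CGTCA) in capitals.
EGR1 promoter, chr5:138465319-138465438, plus strand: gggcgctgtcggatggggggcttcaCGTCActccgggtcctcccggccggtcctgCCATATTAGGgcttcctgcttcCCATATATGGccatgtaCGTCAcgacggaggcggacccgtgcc
EGR2 promoter, chr10:62816407-62816526, minus strand: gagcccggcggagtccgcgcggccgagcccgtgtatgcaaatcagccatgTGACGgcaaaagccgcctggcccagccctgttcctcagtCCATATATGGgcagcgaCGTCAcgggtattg
NR4A3 promoter, chr9:99821725-99821844, plus strand: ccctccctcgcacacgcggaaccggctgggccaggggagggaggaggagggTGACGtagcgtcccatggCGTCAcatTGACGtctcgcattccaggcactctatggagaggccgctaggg

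The EGR1 window showed 2 CArG boxes, from -105 to -96 and from -83 to -74 relative to the start, with 1 CRE core on each side of the pair. EGR2 showed 1 CArG box, from -71 to -62, and also 2 CRE cores, at this start site only and at neither of its other RefSeq starts. NR4A3 showed no CArG box and 3 CRE cores in the printed stretch. Another lay from -25 to -21, in the 30 bases of the window that GENCODE's annotation places inside the gene. Over the 250 bases before the RefSeq start, EGR4 held 2 CRE cores. The core from -109 to -105 lay in 157 bases that GENCODE's annotation places inside the gene. The 2 NR4A1 windows, before starts at 52022832 and 52037715, held none of the motifs searched. NR4A1 runs to 52059507, and any start nearer its end was not searched. Both strands of 35116 promoters of 27305 genes were searched in the same way. A CArG box lay in 1.16% of them and the CRE core TGACG, which is also part of the full CRE, in 21.2%. The full CRE TGACGTCA (1.65% of promoters) was not found in the 8 windows searched. Neither were the NR4A monomer site AAAGGTCA (1.05%) and the AP-1 site TGANTCA with C or G at N (4.2%). An EGR site, GCGNGGGCG, lay in EGR1 from -198 to -190 and in 8.41% of all promoters. A match is a stretch of letters, and binding was not measured.

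In ML1, prexasertib raised all 6 tested members. Over all genes tested, 25.3% were called higher and 23.5% lower at an adjusted p under 0.05 (edgeR's quasi-likelihood test, Benjamini-Hochberg adjustment), so a call as such is common in this comparison. The members' median log2 fold change was 4.33, against 0.02 over all genes. In U937 the 6 members also rose, where 18.3% of all genes were called higher and 12.8% lower, with a median of 3.27 against 0.00. With LSN622666 added, all 6 fell relative to prexasertib alone, where 17.1% of all genes were called lower and 11.9% higher, with a median of -2.01 against 0.01. Both U937 comparisons share the prexasertib libraries, so a library that is high there raises both differences.

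**Figure D1:**
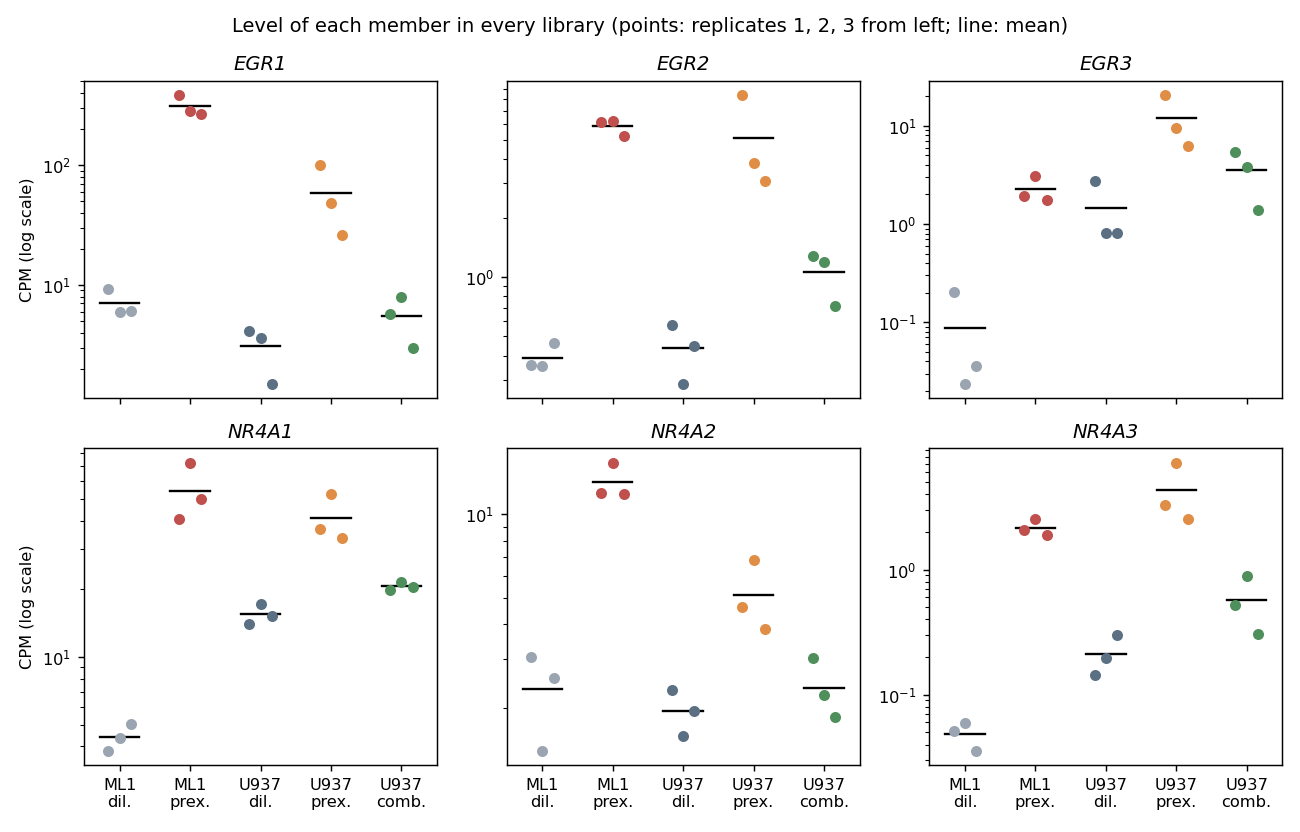
CPM of the 6 tested members in each of the 15 libraries on a log axis, 1 panel a gene, with points for replicates 1 to 3 from left to right and a line at the group mean. In each panel the prexasertib points lie above the diluent points of the same line, and the U937 combination points lie below those of U937 prexasertib.

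EGR1 (chr5:138465490-138469315, plus strand, GRCh38) is the founding EGR factor and, per length, the most abundant member after prexasertib. In U937 prexasertib that order depends on the exon lengths used, 3138 bases for EGR1 and 7295 for NR4A1. In CPM, EGR1 lay above NR4A1 there in replicate 1 and below it in replicates 2 and 3. In ML1 EGR1 stood at 9.27, 5.89 and 6.06 CPM with diluent and at 381, 282 and 266 CPM with prexasertib. The difference was 5.45 ± 0.55 on the log2 scale (SE, n = 3 a group), a 43.8-fold rise, with adjusted p = 2.4e-06. In U937 the diluent libraries held 4.12, 3.58 and 1.5 CPM, the prexasertib libraries 101, 48.7 and 25.9, and the combination libraries 5.71, 7.89 and 3.00. Every prexasertib library thus lay above every diluent and combination library, but the prexasertib libraries themselves spanned a wide range, from 25.9 to 101 CPM. The U937 rise was 4.23 ± 0.53 (adjusted p = 1.2e-04) and the fall with LSN622666 was -3.41 ± 0.50 (adjusted p = 3.8e-04). Replicate 1 of U937 prexasertib weighed on both sizes, which were 3.55 and -2.75 without it.

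EGR2 (chr10:62811996-62919900, minus strand) is best known for peripheral nerve myelination and is also used by macrophages and lymphocytes. It was below 1 CPM in every diluent library, at 0.357, 0.356 and 0.462 in ML1 and at 0.572, 0.288 and 0.449 in U937. With prexasertib it reached 6.12, 6.23 and 5.21 CPM in ML1, a log2 change of 3.90 ± 0.39 (adjusted p = 2.3e-07). In U937 it reached 8.37, 3.8 and 3.07 CPM, a change of 3.52 ± 0.38 (adjusted p = 7.9e-06), or 2.93 without replicate 1 of the treated group. The treated levels of the lines overlapped. The combination libraries stood at 1.28, 1.19 and 0.717 CPM, lower than prexasertib by a log2 difference of -2.26 ± 0.35 (adjusted p = 2.1e-04) and above all diluent libraries.

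EGR3 (chr8:22687659-22693302, minus strand) is known for roles in muscle spindles and lymphocytes. ML1 diluent libraries held 12, 2 and 2 reads of it, or 0.204, 0.0237 and 0.0355 CPM, and ML1 prexasertib libraries 1.92, 3.12 and 1.77 CPM. The log2 change was 4.76 ± 0.82 (adjusted p = 1.7e-04) and, without the first diluent library, 6.21. In U937 the diluent libraries stood at 2.76, 0.810 and 0.813 CPM, the prexasertib libraries at 20.4, 9.58 and 6.19, and the combination libraries at 5.44, 3.84 and 1.39. Replicate 1 was the highest in each U937 group and the groups with and without LSN622666 came close to one another. The U937 rise was 3.02 ± 0.61 (adjusted p = 0.0023), or 3.86 when diluent replicate 1 was left out and 2.37 when prexasertib replicate 1 was. The fall with LSN622666, -1.76 ± 0.58 (adjusted p = 0.031), was the least firm among the 6: it missed the threshold with DESeq2 (adjusted p = 0.067), without a filter on low counts (0.085), and without prexasertib replicate 1 (-1.15, adjusted p = 0.15), combination replicate 2 (-1.83, 0.061) or combination replicate 3 (-1.38, 0.11). An antisense gene, AC055854.1, overlaps 164 bases of EGR3 exon, and the library kit does not mark strand, so reads from those bases cannot be told apart.

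EGR4 (chr2:73290929-73293705, minus strand) held 8 reads in all 15 libraries together, in 5 libraries and at most 2 in any. It had none in ML1 diluent, which allows up to 3 reads over the group, or 0.015 CPM (counting error only). No change of EGR4 was detectable at this depth.

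NR4A1 (chr12:52022832-52059507, plus strand) is the NR4A factor best known for T-cell receptor and stress signalling. It stood at 3.82, 4.38 and 5.01 CPM in ML1 diluent and at 40.7, 72.2 and 50 in ML1 prexasertib, a log2 change of 3.62 ± 0.21 (adjusted p = 4.5e-10). U937 started higher, at 14, 17.1 and 15.2 CPM, and reached 36.8, 52.6 and 33.7 with prexasertib, a change of 1.41 ± 0.20 (adjusted p = 7.5e-05). The treated levels of the lines overlapped, while their diluent levels did not. The combination libraries lay close together at 19.8, 21.4 and 20.4 CPM, -1.0 ± 0.19 against prexasertib (adjusted p = 0.0012). An antisense gene, AC025259.3, overlaps 754 bases of NR4A1 exon, with the same limit as for EGR3.

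NR4A2 (chr2:156324432-156342348, minus strand) is best known for its role in dopamine neurons. Its levels moved least in ML1, from 3.06, 1.4 and 2.56 CPM with diluent to 11.9, 15.3 and 11.8 with prexasertib, a log2 change of 2.48 ± 0.29 (adjusted p = 1.9e-06). In U937 it went from 2.33, 1.58 and 1.95 CPM to 4.64, 6.82 and 3.84, a change of 1.38 ± 0.29 (adjusted p = 0.0024). The treated ML1 libraries all lay above the treated U937 libraries. In the combination it stood at 3.02, 2.23 and 1.85 CPM, -1.11 ± 0.29 against prexasertib (adjusted p = 0.008). Without prexasertib replicate 2 that fall was -0.84 and missed the threshold (adjusted p = 0.06).

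NR4A3 (chr9:99821855-99866891, plus strand), together with NR4A1, is known as a suppressor of myeloid leukemia in mice. It was nearly silent in ML1 diluent, with 3, 5 and 2 reads, or 0.0509, 0.0593 and 0.0355 CPM. Prexasertib brought it to 2.07, 2.54 and 1.88 CPM, a log2 change of 5.39 ± 0.55 (adjusted p = 3.6e-07). In U937 it went from 0.143, 0.198 and 0.299 CPM to 3.30, 7.14 and 2.53, a change of 4.36 ± 0.47 (adjusted p = 7.8e-06) that was 3.77 without prexasertib replicate 2. The combination libraries held 0.523, 0.889 and 0.304 CPM, -2.92 ± 0.42 against prexasertib (adjusted p = 1.2e-04), and each was still above each diluent library.

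**Figure D2:**
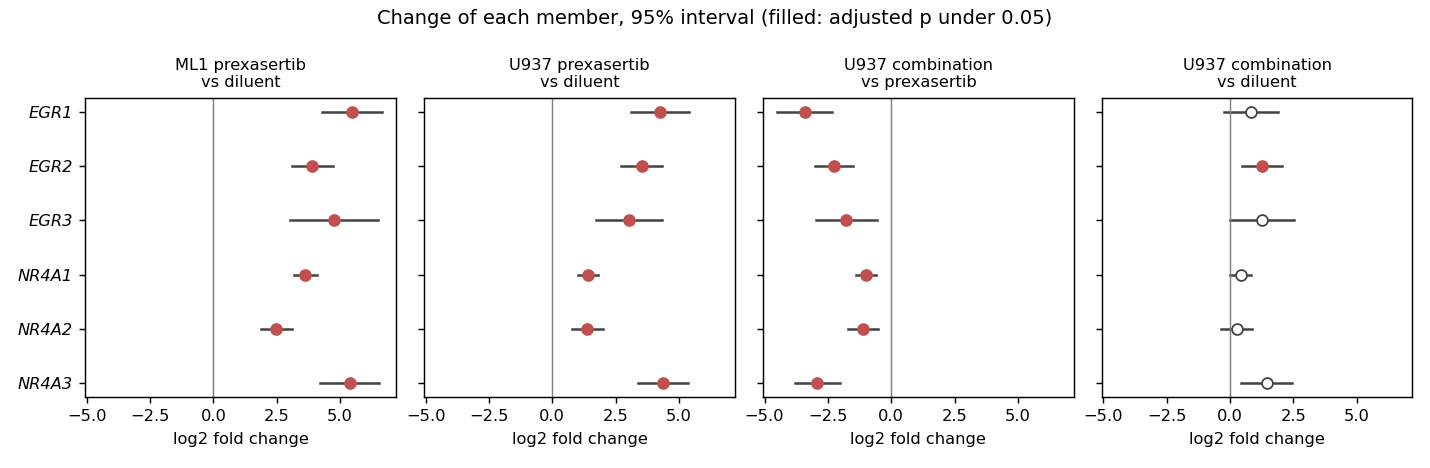
Log2 fold change of each tested member with its 95% interval in 4 comparisons (x axis in log2 units, filled points for an adjusted p under 0.05). All 6 points are filled and to the right of 0 for prexasertib in either line, all 6 are filled and to the left for LSN622666 added to prexasertib, and only EGR2 is filled for the combination against diluent.

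Whether LSN622666 took the members back to their diluent level was read from the combination against diluent. EGR2 alone was called, higher by 1.26 ± 0.38 (adjusted p = 0.041), where 6.88% of all genes were called higher and 4.11% lower. The differences of the other 5 members were also above 0: 0.83 for EGR1 (95% interval -0.25 to 1.91, adjusted p = 0.30), 1.25 for EGR3 (-0.00 to 2.51, 0.18), 0.41 for NR4A1 (0.00 to 0.82, 0.17), 0.27 for NR4A2 (-0.34 to 0.88, 0.58) and 1.44 for NR4A3 (0.44 to 2.45, 0.058). The combination libraries of EGR2, NR4A1 and NR4A3 all lay above the diluent libraries, while those of EGR1, EGR3 and NR4A2 overlapped them. How often genes in general separate in this way was not counted, so the separation is a description only. The calls in this comparison depend on the fit. EGR2 lost its call when only the groups compared were fitted (1.28, adjusted p = 0.055) and without diluent replicate 2 (1.01, 0.17), diluent replicate 3 (1.24, 0.11), combination replicate 1 (1.07, 0.16) or combination replicate 2 (1.17, 0.094). EGR3 gained one without diluent replicate 1 (2.11, adjusted p = 0.048). NR4A3 gained one with DESeq2 (adjusted p = 0.031), with upper-quartile factors (0.048) and without combination replicate 3 (1.75, 0.032), and NR4A1 when only the groups compared were fitted (0.42, 0.047). With the replicate block all members but NR4A2 were called.

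Same-numbered U937 libraries can be set side by side for prexasertib and the combination, whose deviations went together. The ratio of the combination to prexasertib in CPM was 0.0565, 0.162 and 0.116 for EGR1 in replicates 1, 2 and 3. It was 0.153, 0.313 and 0.233 for EGR2 and 0.267, 0.401 and 0.224 for EGR3. Among the nuclear receptors it was 0.537, 0.408 and 0.605 for NR4A1, 0.651, 0.327 and 0.481 for NR4A2, and 0.159, 0.125 and 0.12 for NR4A3. In each of the 3 pairs the lowest ratio belonged to EGR1 or NR4A3. TNF gave 0.406, 0.424 and 0.408, between those of EGR1 and NR4A1 in each pair except replicate 2, where NR4A1 was slightly lower.

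**Figure D3:**
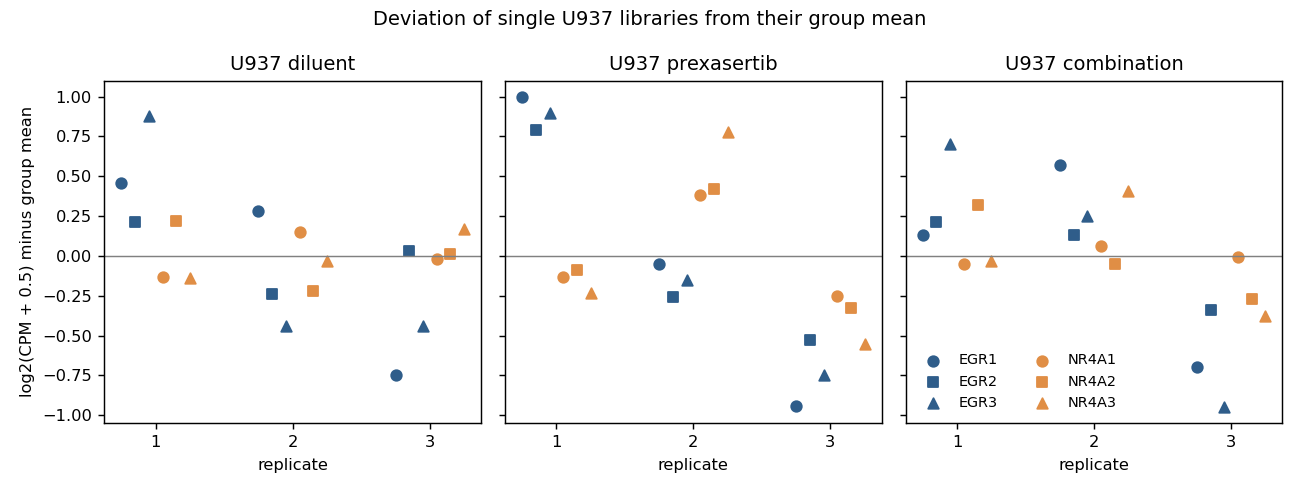
Deviation of each U937 library from its group mean in log2(CPM + 0.5), by replicate number, for the EGR genes (blue) and the NR4A genes (orange). With prexasertib, replicate 1 is highest for EGR1, EGR2 and EGR3, replicate 2 is highest for NR4A1, NR4A2 and NR4A3, and replicate 3 is lowest for all 6. The diluent and combination groups do not split in this way.

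Within the U937 prexasertib group the EGR and the NR4A genes split by library. EGR1, EGR2 and EGR3 were highest in replicate 1, by 1.0, 0.79 and 0.90 above the group mean of log2(CPM + 0.5). NR4A1, NR4A2 and NR4A3 were highest in replicate 2, by 0.38, 0.42 and 0.78, and in replicate 1 they were 0.13, 0.09 and 0.23 below the mean. Replicate 3 was the lowest for all 6. This is a description of 3 libraries, and the part of replicate 2's larger overall response in it was not tested. The other U937 groups did not show this split. In the combination EGR1, NR4A1 and NR4A3 were highest in replicate 2, and EGR2, EGR3 and NR4A2 in replicate 1. With diluent the EGR genes were highest in replicate 1, NR4A1 in replicate 2, NR4A2 in replicate 1 and NR4A3 in replicate 3.

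The lines were compared through the difference between their prexasertib responses. NR4A1 was the only member called, with a U937 response lower than that of ML1 by -2.21 ± 0.28 (adjusted p = 1.3e-05), where 12.3% of all genes were called lower and 12.4% higher. Its size ranged from -2.47 to -1.92 when single libraries were left out. The other estimates were also below 0 and missed the threshold: -1.22 for EGR1 (95% interval -2.67 to 0.23, adjusted p = 0.22), -0.38 for EGR2 (-1.48 to 0.72, 0.66), -1.74 for EGR3 (-3.96 to 0.48, 0.25), -1.10 for NR4A2 (-1.95 to -0.25, 0.055) and -1.02 for NR4A3 (-2.59 to 0.54, 0.35). The EGR3 estimate ran from -3.20 without ML1 diluent replicate 1 to -0.89 without U937 diluent replicate 1. NR4A2 passed with DESeq2 (adjusted p = 0.032), thinned counts (0.034), no low-count filter (0.05) or the replicate block (0.029), and without ML1 diluent replicate 1 (-1.35, 0.029), U937 diluent replicate 2 (-1.26, 0.046) or U937 prexasertib replicate 2 (-1.4, 0.017). EGR1 passed without U937 prexasertib replicate 1 (-1.90, 0.029) and with the block (0.0019), and EGR3 with the block (0.045).

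Before treatment, 3 members were higher in U937 than in ML1, where 32.0% of all genes were called higher and 29.4% lower. EGR3 differed by 4.15 ± 0.83 (adjusted p = 4.2e-04), or by 5.61 without ML1 diluent replicate 1 and 3.27 without U937 diluent replicate 1. NR4A1 differed by 1.81 ± 0.20 (adjusted p = 4.8e-07) and NR4A3 by 2.02 ± 0.64 (adjusted p = 0.011). EGR1 was lower in every U937 diluent library, but at -1.18 ± 0.50 it missed the threshold (adjusted p = 0.055). It passed with DESeq2 (0.037), upper-quartile factors (0.047), the stricter filter (0.035), a fit of only these groups (0.0072) and the replicate block (0.0048). EGR2 (0.18, adjusted p = 0.73) and NR4A2 (-0.25, 0.48) overlapped between the lines.

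Levels of different genes can be compared per length, as CPM per kb of merged exon in GENCODE's annotation. On that scale EGR1 made up 94.8% of the summed EGR level in ML1 diluent and 98.0% in ML1 prexasertib. In U937 its share was 69.8% with diluent, 82.8% with prexasertib and 63.3% in the combination, and most of the rest was EGR3, with 21.5%, 11% and 26.3%. The EGR sum went from 2.38 ± 0.619 to 101 ± 19.6 CPM per kb in ML1 (SD, n = 3), and in U937 from 1.4 ± 0.632 with diluent to 22.5 ± 14.6 with prexasertib and 2.79 ± 1.18 in the combination. ML1 with prexasertib thus carried the highest EGR level, nearly all of it EGR1.

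**Figure D4:**
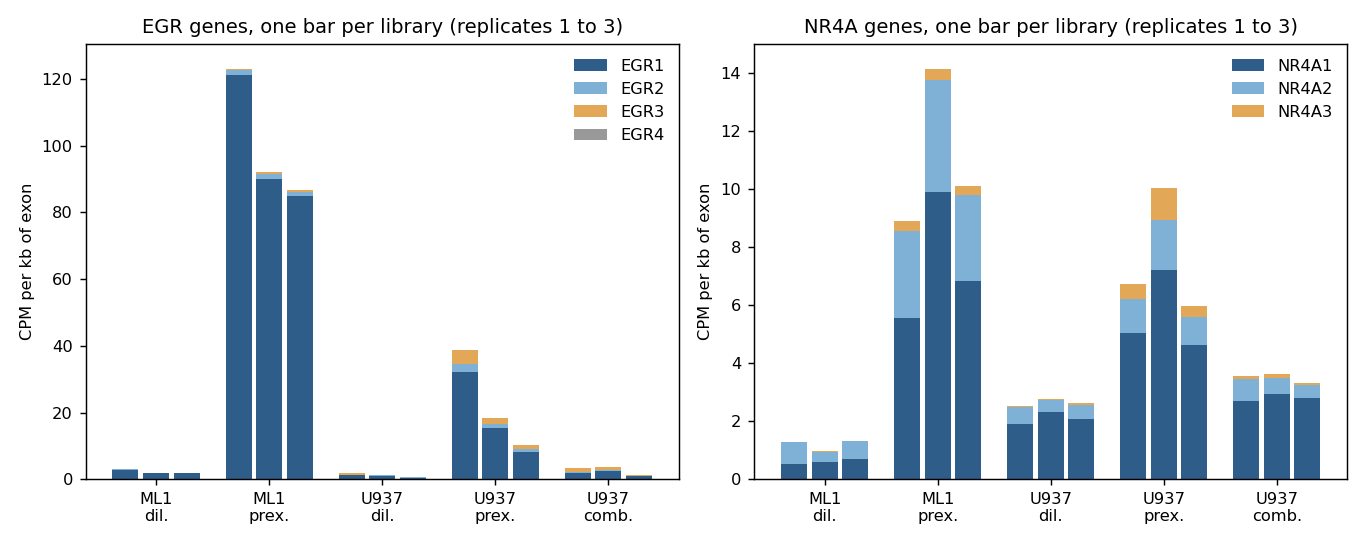
Summed level of the EGR genes (left) and the NR4A genes (right) in CPM per kb of exon, 1 bar a library, stacked by gene from a baseline of 0. EGR1 fills nearly the whole EGR bar in ML1 prexasertib, EGR3 is a visible share only in U937, and NR4A1 is the largest NR4A share in most libraries.

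Among the NR4A genes, NR4A1 and NR4A2 had nearly equal shares in ML1 diluent, 50.3% and 49.1%, and NR4A1 took 67.3% after prexasertib. In U937 NR4A1 held 80.1% with diluent, 74.1% with prexasertib and 80.4% in the combination. NR4A3 had the smallest share in every group. Its share went from 0.64% to 3.1% in ML1, and in U937 from 1.28% to 9.02% with prexasertib and 2.59% in the combination. The NR4A sum was 1.20 ± 0.207 and 11.1 ± 2.78 CPM per kb in ML1, and 2.64 ± 0.121, 7.61 ± 2.19 and 3.50 ± 0.172 in the 3 U937 groups. The merged length counts exons of every annotated form, 7295 bases for NR4A1, so a gene whose cells use short forms reads low on this scale.

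The genes above the members in the pathway changed in both directions. Of all genes, 25.3% were called higher and 23.5% lower in ML1, and 18.3% and 12.8% in U937. With LSN622666 11.9% were called higher and 17.1% lower. The counts of this list and of those below are to be read beside these shares. The lists were chosen with earlier results of these data known, so their counts were not blind to the outcome. Of 21 upstream kinases and factors, 6 rose and 7 fell in ML1 (median 0.05), which is near the shares over all genes. MAPK3, which encodes the kinase ERK1, fell furthest, from 41.1 ± 3.96 to 18.3 ± 4.90 CPM (log2 change -1.16 ± 0.22, adjusted p = 3.1e-04). SRF, the CArG-box factor, rose by 0.62 ± 0.11 (adjusted p = 9.3e-05), while its cofactor gene MKL2 changed by -0.92 ± 0.14 (2.9e-05) and the kinase gene RPS6KA5 by -0.99 ± 0.17 (1.3e-04). In U937 1 rose (MEF2A, 0.30 ± 0.11, adjusted p = 0.039) and 2 fell (MKL2, -0.39 ± 0.14, 0.04, and RPS6KA4, -0.42 ± 0.15, 0.044), and these calls were lost in 8, 8 and 7 of 14 alternatives. LSN622666 was followed by 1 rise (RPS6KA4, 0.65 ± 0.15, adjusted p = 0.0047) and 6 falls, among them ATF1, a CREB relative (-0.47 ± 0.12, 0.0072). With the replicate block the falls numbered 10, and without U937 prexasertib replicate 2 only 1. These are RNA levels, and phosphorylation of the proteins was not measured.

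Of 6 partner and co-repressor genes, 1 rose and 3 fell in ML1, 2 rose and none fell in U937, and 1 rose and 2 fell with LSN622666 (4 fell with the replicate block). Neither EGR co-repressor gene rose with EGR1. NAB2 stood at 41.6 ± 5.08 CPM in ML1 diluent and at 34.4 ± 5.21 with prexasertib (log2 change -0.27 ± 0.23, adjusted p = 0.35). In U937 its diluent level was 23.1 ± 6.60 CPM, against 28.6 ± 10.9 after prexasertib and 21.2 ± 3.71 in the combination (0.31 ± 0.23, adjusted p = 0.33, and -0.43 ± 0.23, adjusted p = 0.17). NAB1 fell in ML1, by -0.34 ± 0.12 (adjusted p = 0.024, lost in 5 of 14 alternatives), and in U937 its change was 0.00 ± 0.12 (adjusted p = 1). DDX20, which encodes an RNA helicase that binds EGR factors, fell by -0.45 ± 0.11 in ML1 (adjusted p = 0.0023) and by -0.49 ± 0.11 with LSN622666 in U937 (adjusted p = 0.0031), and was just called higher with prexasertib in U937 (0.29 ± 0.11, 0.048), a call lost in 9 of 14 alternatives.

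The RXR partner genes went separate ways. RXRA fell in ML1 by -0.75 ± 0.20 (adjusted p = 0.0044) and changed by -0.34 ± 0.20 in U937 (adjusted p = 0.20). In the treatment comparisons of either line RXRB was called only for LSN622666 added to prexasertib, higher by 0.30 ± 0.11 (adjusted p = 0.041, lost in 7 of 14 alternatives). RXRG rose in ML1 from 3 reads in the 3 diluent libraries to 59 (adjusted p = 0.015), a ratio of 23.2 after scaling with an exact binomial 95% interval of 7.56 to 116 for counting error only. That call was lost without ML1 diluent replicate 2, diluent replicate 3 or prexasertib replicate 1 (adjusted p = 0.062, 0.055 and 0.063). Its U937 change of 4.51 ± 1.02 (adjusted p = 0.0039) came mostly from prexasertib replicate 2, in a group that spanned 0.338 to 6.37 CPM. Without that library it was 2.28 (adjusted p = 0.063), and the fall with LSN622666 went from -2.90 to -0.70 (adjusted p = 0.56).

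The members had much company among immediate early genes. Of 25 others, 24 rose and 1 fell in ML1 (median 4.14), and 21 rose and 1 fell in U937 (median 2.39). The gene that fell was MYC in both lines, by -0.91 ± 0.24 in ML1 (adjusted p = 0.0041) and -0.67 ± 0.24 in U937 (0.041). The U937 call of MYC was lost without U937 diluent replicate 1, diluent replicate 2 or prexasertib replicate 2, and with upper-quartile factors, a stricter filter or none. With LSN622666 21 of the 25 fell and none rose (median -2.02). CSRNP1 changed by 5.11 ± 0.16, 2.08 ± 0.14 and -2.09 ± 0.14 in these comparisons (adjusted p = 5.3e-13, 2.2e-07 and 5.7e-07). The antiproliferative gene BTG2 changed by 4.49 ± 0.21, 2.39 ± 0.19 and -2.15 ± 0.19 (3.2e-11, 6.4e-07 and 3.2e-06). FOSB, an AP-1 subunit gene, rose by 6.86 ± 0.38 in ML1 (3.2e-10), and DUSP1, a MAP kinase phosphatase gene, rose by 4.25 ± 0.34 and fell by -3.15 ± 0.32 in U937 (7.3e-07 and 1.1e-05).

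**Figure D5:**
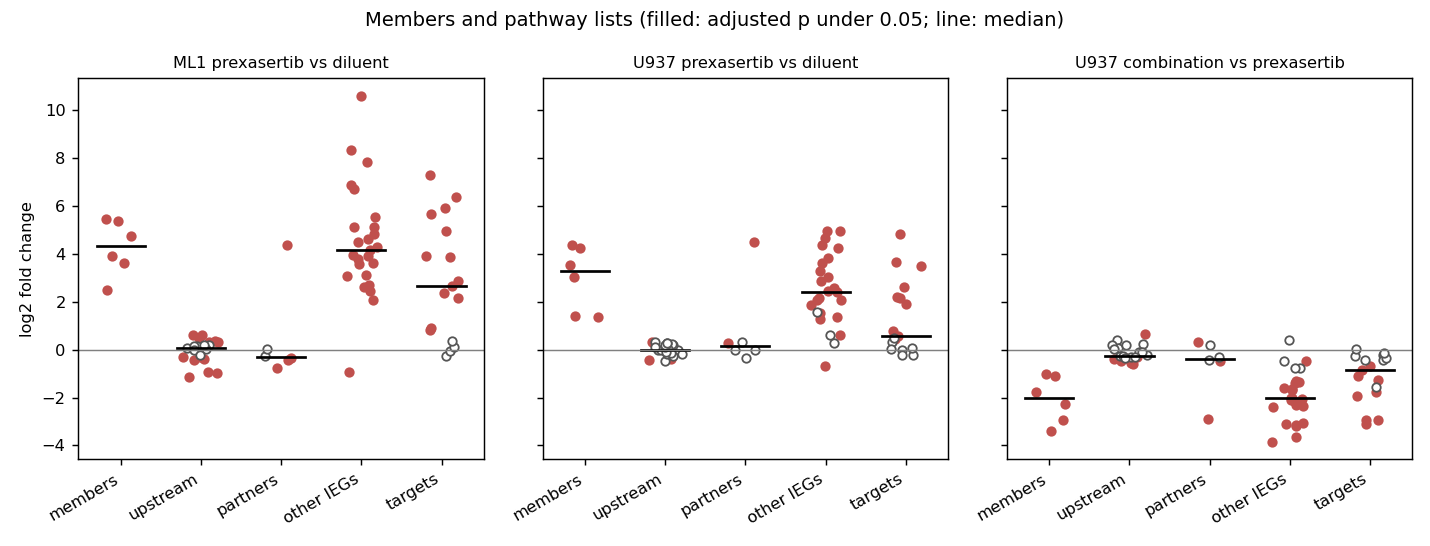
Log2 fold change of every tested gene in the members' set and 4 pathway lists, in 3 comparisons (filled points for an adjusted p under 0.05, lines at the medians). Members and other immediate early genes (IEGs) lie far from 0 together, while upstream genes changed in both directions, with medians of 0.05, 0.01 and -0.27.

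Of 18 genes reported elsewhere as EGR or NR4A targets, 17 were tested. In ML1 13 rose and none fell (median 2.65), in U937 10 rose and none fell (median 0.55), and with LSN622666 9 fell and none rose (median -0.84). ICAM1, an adhesion molecule, rose by 6.38 ± 0.26 in ML1 and 1.92 ± 0.20 in U937 and fell by -1.93 ± 0.20 with LSN622666 (adjusted p = 5.7e-12, 6.6e-06 and 1.3e-05). GDF15, a stress cytokine, rose by 4.81 ± 0.41 (5.51 without U937 diluent replicate 1) and fell by -3.10 ± 0.34 in U937 (1.1e-06 and 1.4e-05), and the cell cycle inhibitor gene CDKN1A rose by 3.50 ± 0.30 and fell by -2.93 ± 0.29 (1.5e-06 and 1.1e-05). VEGFA (2.14 ± 0.10) and PLAUR (2.88 ± 0.15) rose in ML1 (3.2e-11 and 9.8e-11). TNF itself stood at 3.94 ± 1.79 and 198 ± 55.5 CPM in ML1, and at 2.70 ± 0.424, 16.5 ± 7.37 and 6.86 ± 3.23 CPM in the U937 groups. Its log2 changes were 5.65 ± 0.44, 2.61 ± 0.40 and -1.27 ± 0.38 (adjusted p = 6.3e-08, 3.6e-04 and 0.02). The call of this fall was lost without a low-count filter (adjusted p = 0.065) and without U937 combination replicate 1 (-1.18, 0.075), combination replicate 3 (-1.01, 0.089) or prexasertib replicate 2 (-0.86, 0.097). None of these genes was tested here for dependence on a member.

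Monocyte and macrophage markers moved with the members in ML1. All 10 markers tested of 12 rose (median 2.54), and their summed level went from between 553 and 795 CPM to between 3780 and 5300. CD68 rose by 2.36 ± 0.11 and LYZ by 2.82 ± 0.17 (adjusted p = 3.3e-11 and 7.8e-10). In U937 3 rose, CD14 and FCGR3A among them, the median was 0.14, and the summed level was between 252 and 307 CPM with diluent and between 252 and 297 with prexasertib. CD14, a lipopolysaccharide co-receptor gene, rose by 2.38 ± 0.40 (adjusted p = 3.9e-04). FCGR3A had no read in U937 diluent and 18 with prexasertib, and missed the threshold without any 1 diluent library or without prexasertib replicate 3 (adjusted p = 0.068 to 0.15). With LSN622666 1 marker rose (CSF1R, 1.13 ± 0.23, adjusted p = 0.0017) and 1 fell, against 3 and 2 with the replicate block. The 8 general myeloid markers had 5 rises and 1 fall in ML1, 1 of each in U937 (MPO and CD33), and 1 rise with LSN622666. Without U937 prexasertib replicate 2 both U937 calls were lost (MPO 0.66, adjusted p = 0.14, and CD33 -0.31, 0.057). Of the 4 non-myeloid markers tested 1 rose and 2 fell in ML1 and 1 rose with LSN622666. In U937 the members thus rose while this summed level kept its range, and the part of the markers' change in the ML1 result was not tested.

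The genes whose level pattern over the 15 libraries was most like that of each member were found by the root mean square difference of centred log2(CPM + 0.5), with 2 named a member. For EGR1 they were PTGS2, the inducible cyclooxygenase gene (0.63), and the chemokine gene CXCL2 (0.63). EGR2 was closest to DUSP10, a MAP kinase phosphatase gene (0.42), and RGS1 (0.43). EGR3 was closest to SLC26A11 (0.57) and the homeobox gene DLX2 (0.58). For NR4A1 they were the tubulin gene TUBB2A (0.25) and SAT1, which acts in polyamine breakdown (0.30), for NR4A2 KMO (0.25) and LINC00936 (0.28), and for NR4A3 the T-box gene EOMES (0.19) and the histamine receptor gene HRH1 (0.23). Among the members the closest pair was EGR2 and NR4A3 (0.54) and the farthest EGR1 and EGR3 (2.29). A member's nearest gene lay outside the 2 families in each case. Far more genes were searched outside the families than within them, so this says little about how alike the members are. The libraries share their treatments, and these differences are a description.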

How the data were processed

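The authors deposited 1 table of raw counts per gene for 15 libraries. The submitters' processing notes name the build hg38 and the tools featureCounts 1.4.6 (Subread), TopHat2 2.0.14 and Bowtie2 2.2.6. Which annotation and strand setting were used, and how mates were counted, is not given in the sources used here. The library kit was Illumina's TruSeq RNA v2, per the labels' protocols.

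Counts of all genes that passed edgeR's filterByExpr (17243 of 26485) were fitted in edgeR 4.0.16 (R 4.3.3) with 1 mean per group over all 15 libraries, TMM scaling and robust quasi-likelihood tests. P-values were adjusted over all genes tested by Benjamini-Hochberg, with a threshold of 0.05, and the code was tested on simulated data. The members and the gene lists were chosen with earlier results of these data known. The lists were upstream kinases and factors, partners and co-repressors, other immediate early genes, reported targets, and monocyte, myeloid and non-myeloid markers. All members, TNF, the tested partners, up to 3 genes of each other list per comparison with the smallest p among those called, and the 2 nearest genes of each member were named. MYC and MAPK3 lie outside that rule and were chosen with their values in view. Not every gene under the rule is reported here.

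Replicate numbers were checked as pairs by correlating deviations from group means over genes. U937 prexasertib and combination libraries of the same number gave r = 0.409, 0.37 and 0.384, so they were taken as paired, and no other pair of groups exceeded 0.1 in all 3. With a replicate block all 6 members remained called in that comparison. Alternatives were DESeq2 1.42.0, other scalings and filters, fits of fewer groups, thinned counts, a fold threshold, the block, and leaving out each library. Exon lengths came from GENCODE v29 and promoters from RefSeq (GRCh38.p14).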

Additional observations from a re-analysis of the deposited data

Results flagged for a closer look

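The response to prexasertib differed between the lines by the test of the difference itself (edgeR's interaction contrast, adjusted p under 0.05) for 3 genes among the members, the partner genes and TNF. NR4A1 rose less in U937, by -2.21 on the log2 scale. TNF also rose less there, by -3.05. DDX20, which fell in ML1 and was just called higher in U937, differed by 0.74. In the other lists the U937 response was called lower for 17 of 25 other immediate early genes, 11 of 17 tested target genes and 8 of 10 tested monocyte and macrophage markers, where 12.3% of all genes were called lower. Of the 21 upstream kinases and factors 1 was called higher and 3 lower.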

How the results depend on the processing

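The members' calls for prexasertib in ML1 and in U937 kept their direction and their side of the threshold in all 89 values each under the alternatives. For the combination against prexasertib 82 of 89 did so and 7 fell short. Of these, 5 were for EGR3 and 1 for NR4A2, by adjusted p. The last was for NR4A1, whose change of -0.999 missed the log2 fold threshold of 1. For the comparison of the lines before treatment 81 of 87 values kept both, with 5 calls gained, all for EGR1. The number of members called for the combination against diluent was 1. It was 2 with DESeq2, 2 with upper-quartile factors and 5 with the replicate block, and ran from 0 to 2 when single libraries were left out. For the difference between the lines' responses it was also 1, against 2 with DESeq2, 2 without a low-count filter, 2 with thinned counts and 4 with the block, and it ran from 1 to 2 when single libraries were left out. The block groups numbers that were paired only for prexasertib and the combination in U937, where it changed no member's call. EGR2 in U937 against ML1 diluent, which was not called, ran from -0.10 to 0.40 when single libraries were left out, with -0.10 without U937 diluent replicate 1. The cause of these shifts was not tested.

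The counts over all genes moved as well. Genes called lower with prexasertib in U937 numbered 2209, 881 without prexasertib replicate 2 and 3682 with the block, and those called higher 3160, 1797 and 3937. For the combination against prexasertib the falls numbered 2947, 1794 without that library and 3830 with the block, and the rises 2048, 1105 and 3239. Against diluent the rises numbered 1186, 425 without combination replicate 1 and 2218 with the block, and the falls 709, 179 and 2065. Depth limits EGR4 (8 reads in all) and the diluent levels of EGR3 and NR4A3 in ML1 (16 and 10 reads).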
